A study of Mus musculus with 18 samples.

Results

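The oligoadenylate synthetase (OAS) family was followed across 6 groups of L929 cells, an established line of mouse fibroblasts labelled as wild type. Its members were the 7 genes Oas1a, Oas1b, Oas1g, Oas2, Oas3, Oasl1 and Oasl2, each taken by its symbol from a table of 57180 genes. All 7 passed the filter on low counts that left 14263 genes for testing, and each reached the level of that filter in all 3 libraries of at least 4 groups. The groups, each of 3 independent cultures, were Mock (labelled DMSO), AOA, AOA+Asp, HT-DNA, HT-DNA+AOA and HT-DNA+AOA+Asp. AOA, aminooxyacetic acid, inhibits aminotransferases and was given at 0.5 mM for 1 h before HT-DNA. Asp is aspartate, added at 20 mM together with AOA, and no group received aspartate without AOA. HT-DNA is herring testis DNA, a ligand of the DNA sensor cGAS, transfected with a lipid reagent at 0.5 μg/ml for 6 h. The sources used here do not say whether cells without HT-DNA received the transfection reagent, so effects of the DNA and of the reagent cannot be told apart.

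OAS enzymes bind dsRNA and join ATP into short 2′-5′-linked oligoadenylates, written 2-5A, a second messenger of the antiviral response. The genes are classical interferon-stimulated genes (ISGs), transcribed when interferon signaling assembles the transcription factor complex ISGF3 or when IRF3 or IRF7 is active, through promoter elements of the ISRE type. In the mouse, Oas1a and Oas1g encode enzymes with a single OAS unit, while Oas2 and Oas3 encode larger proteins built from repeated units. Oas1b is an Oas1 copy known for resistance of mice to flaviviruses, and the deposited table puts it in a loss-of-function class of protein-coding genes. Oasl1 and Oasl2 encode OAS-like proteins with ubiquitin-like domains. OASL1 is known to restrain translation of Irf7 mRNA, and OASL2 keeps synthetase activity.

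The members lie on chromosome 5 in 2 clusters (GRCm38, GENCODE vM21). Oasl2 (ENSMUSG00000029561, chr5:114896936-114912234, plus strand) and Oasl1 (ENSMUSG00000041827, chr5:114923240-114937915, plus strand) are neighbours. The other cluster holds Oas2 (ENSMUSG00000032690, chr5:120730333-120749853, minus strand), Oas3 (ENSMUSG00000032661, chr5:120753098-120777661, minus strand) and Oas1b (ENSMUSG00000029605, chr5:120812635-120824163, plus strand). It also holds Oas1g (ENSMUSG00000066861, chr5:120876142-120887613, minus strand) and Oas1a (ENSMUSG00000052776, chr5:120896256-120907521, minus strand). The build of the deposited counts is not given in the sources used here, so these positions describe the genes and not the alignment. Gm43068 overlaps Oas2 on the opposite strand and had 0 to 2 counts per library. Gm13822 overlaps the first 38 bases of Oasl1 on the opposite strand and had 0 to 49 counts per library.

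Because the members moved together (below), their promoters are shown. RefSeq gives a promoter window (GRCm38.p6, 250 bases before to 50 bases after the gene start, 300 bases in all) for 5 of the 7 members. The 250 bases before the start are printed 5′ to 3′ on the strand of the gene, for Oas1a (chr5:120907526-120907775, minus), Oas1g (chr5:120887614-120887863, minus), Oas3 (chr5:120777660-120777909, minus), Oasl1 (chr5:114922990-114923239, plus) and Oasl2 (chr5:114896684-114896933, plus). Capitals mark matches to the ISRE core GAAANNGAAA or to the shorter IRF motif AANNGAAA, searched on both strands, and every match to the first contains a match to the second.
Oas1a: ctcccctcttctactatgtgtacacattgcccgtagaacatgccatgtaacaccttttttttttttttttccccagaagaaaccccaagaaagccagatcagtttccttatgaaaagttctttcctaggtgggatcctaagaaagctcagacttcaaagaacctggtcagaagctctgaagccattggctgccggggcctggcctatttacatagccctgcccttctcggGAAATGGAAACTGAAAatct
Oas1g: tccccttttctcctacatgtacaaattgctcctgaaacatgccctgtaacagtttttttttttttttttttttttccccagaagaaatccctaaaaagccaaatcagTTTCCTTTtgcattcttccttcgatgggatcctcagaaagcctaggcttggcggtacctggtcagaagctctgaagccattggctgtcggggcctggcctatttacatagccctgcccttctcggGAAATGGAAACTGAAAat
Oas3: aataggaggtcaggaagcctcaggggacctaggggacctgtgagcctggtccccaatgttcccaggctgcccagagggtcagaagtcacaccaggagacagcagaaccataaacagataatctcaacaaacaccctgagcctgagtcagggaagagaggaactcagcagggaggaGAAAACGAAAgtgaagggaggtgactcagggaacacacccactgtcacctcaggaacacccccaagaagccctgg
Oasl1: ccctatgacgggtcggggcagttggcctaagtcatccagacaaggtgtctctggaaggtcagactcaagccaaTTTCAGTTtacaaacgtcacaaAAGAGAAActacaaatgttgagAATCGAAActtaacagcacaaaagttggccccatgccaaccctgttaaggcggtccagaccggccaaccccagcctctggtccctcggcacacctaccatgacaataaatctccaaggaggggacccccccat
Oasl2: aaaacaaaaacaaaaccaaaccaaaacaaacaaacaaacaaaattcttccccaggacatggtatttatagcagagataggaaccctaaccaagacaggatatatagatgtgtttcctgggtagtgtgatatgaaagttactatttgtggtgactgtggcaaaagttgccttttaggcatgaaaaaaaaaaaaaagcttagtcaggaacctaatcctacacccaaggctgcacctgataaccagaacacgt

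The ISRE core occurred in 3 of these 5 windows, against 3.44% of the 32851 RefSeq windows of the same length. Oas1a holds 2 overlapping copies that begin 20 and 14 bases before the start, and Oas1g holds the same letters 18 and 12 bases before its start. Oas3 holds a single copy that begins 75 bases before the start. The shorter motif, found in 23.9% of all windows, occurred in 4 of the 5. Outside the ISRE copies it lies 143 bases before the start of Oas1g, at 3 sites before the start of Oasl1 (177, 155 and 133 bases) and 4 bases after the start of Oas3. Neither set of letters is in the Oasl2 window. A match describes letters in the sequence and was not tied to binding of any factor. Aligned over their full windows, Oas1a and Oas1g were 85.3% identical, whereas the other 9 pairs were 42% to 48% identical.

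Depth was similar in all libraries, with 17901605 to 24057343 estimated counts on genes, and levels are given below as CPM, the counts relative to TMM-scaled library totals. Replicates were compared by chi-square over genes, where a value of 1 per degree of freedom would be counting error alone. It was 18.2 to 67 among the HT-DNA+AOA libraries and 2.78 to 13.3 within the other groups. The test used below estimates the spread of a gene over all 18 libraries together. Its SE and p may therefore understate the spread within HT-DNA+AOA. Of 10 fibroblast markers, 7 had a median of at least 1 CPM, and Thy1, Lum and Dcn were at or near 0. Of 12 markers of other cell types, only the macrophage gene Cd68 did, at 110.0 to 155.2 CPM, while Ptprc, Adgre1 and Cd3e had no count in any of the 18 libraries. Oas1a and Oas1g share reads. Of the distinct 31-base sequences in its GENCODE transcripts, Oas1a has 68.7% in common with Oas1g, and Oas1g has 54.6% in common with Oas1a. Their estimated counts were not whole in all 18 libraries, yet the 2 values summed to a whole number in each (within 0.011 counts). How reads were split between this pair is therefore the counting program's estimate, and values for the sum are given beside their own. In bulk RNA, more cells expressing a gene and more RNA per cell cannot be told apart.

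In resting (Mock) cells every member was detected, at low levels. Compared per kilobase of annotated exon, so that genes of different length can be ranked, Oas1a came first with 6.58 ± 0.302 CPM per kb (SD, n = 3) and made up 59.6% of the family total. Oas1g followed with 2.15 ± 0.211 CPM per kb (19.5%), and Oasl1 with 1.14 ± 0.00532 CPM per kb (10.4%). Oas1b (0.523 ± 0.186 CPM per kb) and Oas3 (0.345 ± 0.056 CPM per kb) came next, and their libraries overlapped. Oas2 (0.171 ± 0.029 CPM per kb) and Oasl2 (0.116 ± 0.0662 CPM per kb) were lowest and also overlapped. Oas1a and Oas1g thus held most of the family's transcripts in Mock, while Oasl1 held 10.4% and Oasl2 was among the lowest.

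**Figure D1:**
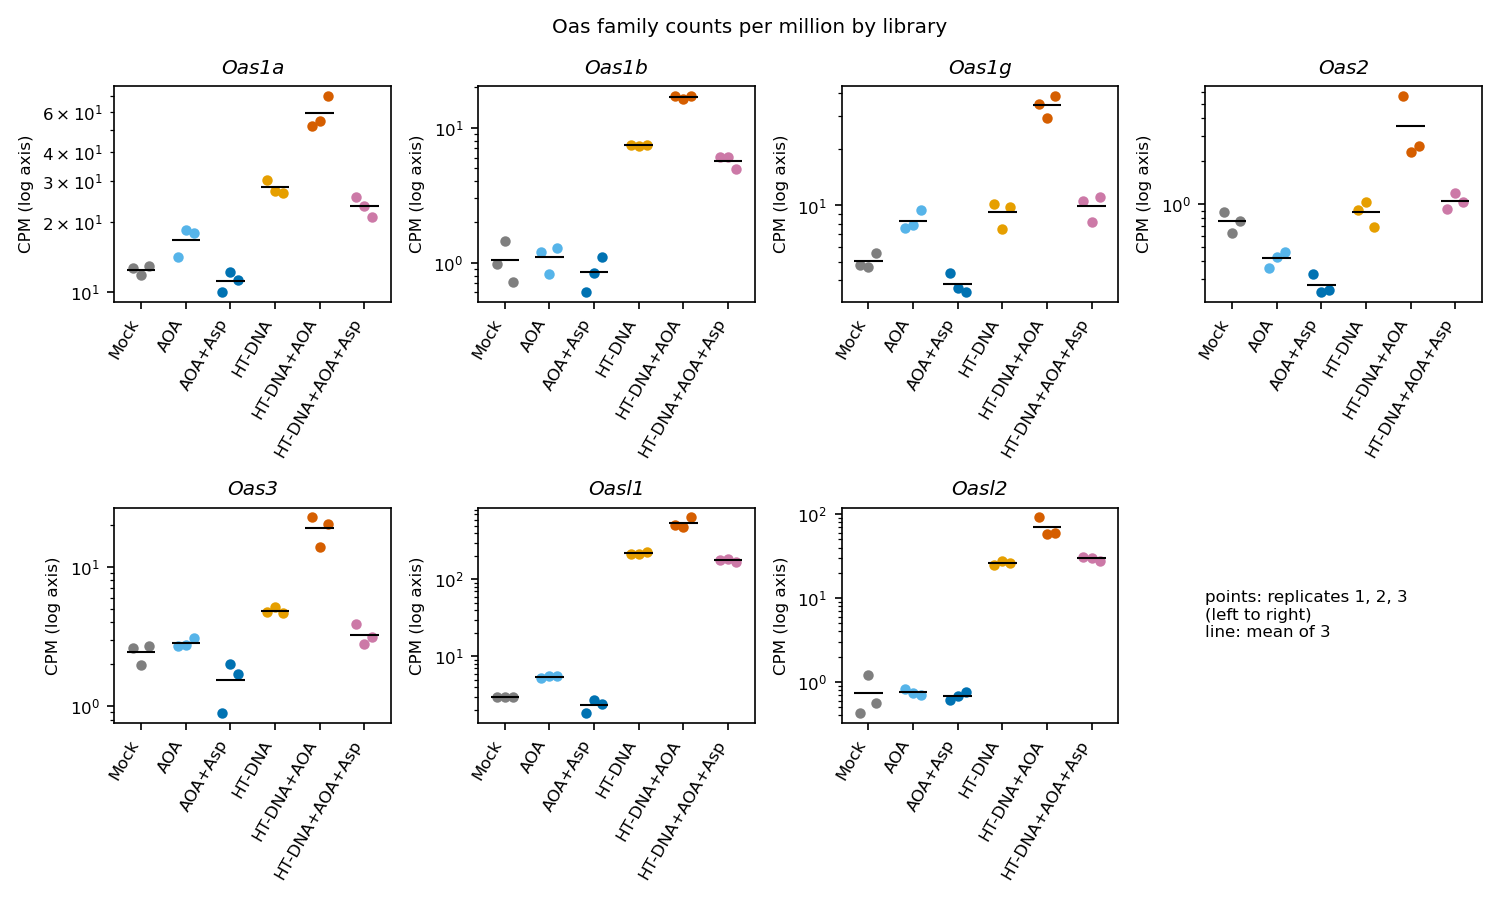
CPM of each member in the 18 libraries (log axes, a panel per gene, points for replicates 1, 2 and 3 from left to right, lines for group means). In every panel the 3 HT-DNA+AOA libraries lie above all 15 others, from 2.31 CPM for the lowest such library of Oas2 to 641.6 CPM for the highest of Oasl1.

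HT-DNA raised 6 of the 7 members relative to Mock, with Oasl1 and Oasl2 far ahead of the other members. Among all genes tested in this comparison, 24.2% were called higher and 24% lower (3454 and 3425 genes; 2408 and 4437 with library totals in place of TMM). The members' median log2 fold change was 1.2 and that of all genes -0.0076. Calls throughout are genes with a Benjamini-Hochberg adjusted p under 0.05 over all 14263 genes in edgeR's quasi-likelihood test. Where libraries are said not to overlap, this describes single genes, and the share of all genes without overlap is not given.

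Oasl1 stood at 2.96, 2.97 and 2.99 CPM in Mock and at 212.6, 216.2 and 227.7 CPM with HT-DNA. This was a log2 fold change of 6.20 (SE 0.124, adjusted p = 3.71e-17 from edgeR), a 73.4-fold difference, and the smallest p of any gene in the comparison. Oasl2 had 0.423, 1.22 and 0.57 CPM in Mock, from 10 to 27 counts, and 24.8, 27.6 and 26.5 CPM with HT-DNA. Its log2 fold change was 5.15 (SE 0.236, adjusted p = 1.84e-11 from edgeR). The HT-DNA libraries of both genes lay far above those of Mock.

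Oas1b rose from 0.973, 1.44 and 0.712 CPM to 7.43, 7.3 and 7.47 CPM, a log2 fold change of 2.82 (SE 0.198, adjusted p = 1.24e-08 from edgeR). Oas1a rose from 12.6, 11.8 and 12.9 CPM to 30.5, 27.3 and 26.8 CPM, a log2 fold change of 1.19 (SE 0.124, adjusted p = 1.68e-06 from edgeR). Oas1g rose from 4.82, 4.69 and 5.6 CPM to 10.2, 7.48 and 9.87 CPM (0.87, SE 0.156). The sum of Oas1a and Oas1g rose by 1.10 on the log2 scale (SE 0.109), between the values of both genes. Oas3 rose from 2.62, 1.98 and 2.71 CPM to 4.75, 5.12 and 4.67 CPM (0.99, SE 0.223). For these 4 genes, too, no HT-DNA library overlapped a Mock library. Oas2 was the exception, with 0.889, 0.631 and 0.759 CPM in Mock and 0.91, 1.04 and 0.699 CPM with HT-DNA. Its log2 fold change of 0.21 (SE 0.346) rests on 14 to 22 counts per library, and its groups overlapped.

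The order of the members changed with HT-DNA. Oasl1 made up 75.2% ± 1.33 (SD, n = 3) of the family's CPM per kb, against 10.4% ± 0.275 in Mock, and Oas1a 13.4% ± 1.12, against 59.6% ± 1.28. The family total went from 11.0 ± 0.323 to 111.5 ± 2.6 CPM per kb. Oasl2, Oas1g and Oas1b followed at 3.7%, 3.51% and 3.33% of the total, and the libraries of Oas1g overlapped those of Oasl2 and of Oas1b. The same order held at the top with HT-DNA+AOA (Oasl1 75.1%, Oas1a 11.3%, Oas1g 5.28%) and with HT-DNA+AOA+Asp (Oasl1 73.3%, Oas1a 13.3%, Oasl2 5%). Per length of the longest transcript instead of all exons, Oasl2 (6.78%) passed Oas1g (5.18%) in HT-DNA+AOA, while Oas1a stayed first in Mock (54.8%) and Oasl1 first in HT-DNA+AOA (74.5%).

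**Figure D2:**
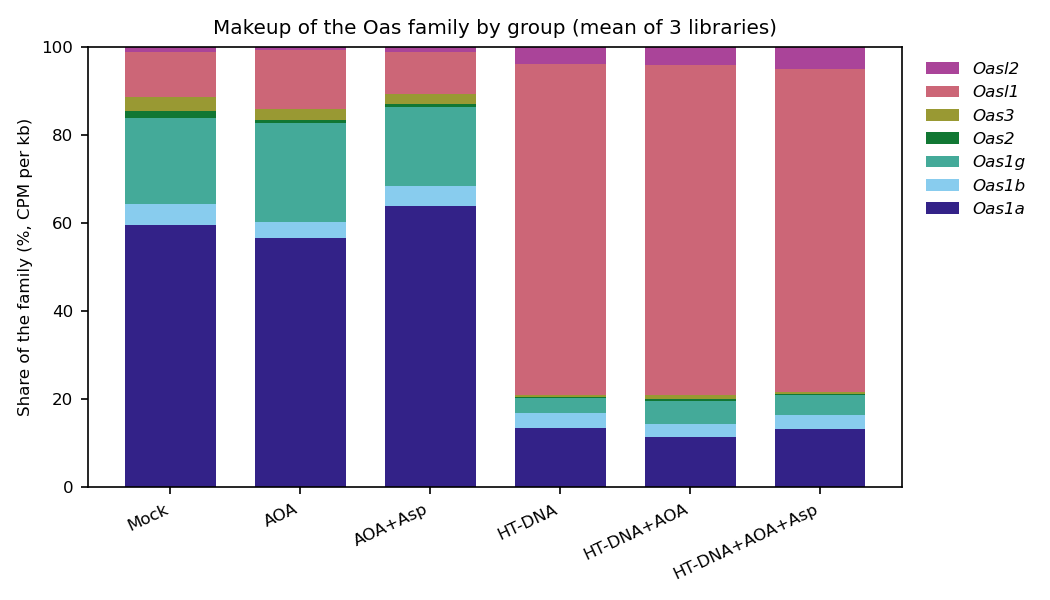
Mean share of each member in the summed CPM per kb of the family (vertical axis, percent), for the 6 groups. Oas1a fills 56.6% to 63.9% of the bar in the 3 groups without HT-DNA, and Oasl1 73.3% to 75.2% in the 3 groups with it.

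AOA alone raised 3 of the 7 members relative to Mock, by less than 1 on the log2 scale. In this comparison 22.4% of all genes were called higher and 23.3% lower (3199 and 3317 genes; 2124 and 4502 with library totals), and the members' median log2 fold change was 0.22. Oasl1 went from 2.96 to 2.99 CPM in Mock to 5.23, 5.54 and 5.58 CPM with AOA, a log2 fold change of 0.87 (SE 0.144, adjusted p = 7.37e-05 from edgeR). Oas1g went to 7.55, 7.86 and 9.42 CPM (0.71, SE 0.158, adjusted p = 0.00118 from edgeR). Oas1a went to 14.1, 18.4 and 17.9 CPM (0.44, SE 0.128, adjusted p = 0.00912 from edgeR). Each of these groups lay above Mock without overlap, though the call for Oas1a was lost without AOA replicate 2 (0.36). The summed counts of Oas1a and Oas1g rose by 0.52 (SE 0.11). Oas2 had 0.362, 0.429 and 0.465 CPM with AOA, below all 3 Mock libraries, but its log2 fold change of -0.85 (SE 0.392) did not pass the test (adjusted p = 0.0831 from edgeR). Oas1b (0.04, SE 0.253), Oas3 (0.22, SE 0.237) and Oasl2 (0.04, SE 0.406) overlapped with Mock.

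Aspartate lowered 4 members in AOA-treated cells without HT-DNA. Among all genes, 23.5% were called higher and 22.8% lower (3345 and 3255; 4087 and 2484 with library totals). The members' median was -0.6. Oasl1 fell to 1.82, 2.74 and 2.44 CPM, a log2 fold change of -1.22 (SE 0.15, adjusted p = 3.38e-06 from edgeR), and Oas1g fell to 4.34, 3.62 and 3.45 CPM (-1.12, SE 0.164). Oas1a fell to 9.98, 12.2 and 11.2 CPM (-0.59, SE 0.129). Oas3 fell from 2.69, 2.75 and 3.08 CPM to 0.886, 2.01 and 1.69 CPM (-0.89, SE 0.254), and its call was lost without AOA+Asp replicate 1 (-0.62). Relative to Mock, only Oas2 passed the test in AOA+Asp cells. In this comparison 2.52% of all genes were called higher and 3.95% lower (360 and 563). With library totals these counts were 231 and 873. They were 104 to 237 and 255 to 384 when any of the 6 libraries but AOA+Asp replicate 2 was left out. Oas2 had 0.327, 0.245 and 0.253 CPM with AOA+Asp, from 5 to 7 counts, a log2 fold change of -1.45 (SE 0.414, adjusted p = 0.0414 from edgeR). That call was lost when any single library was left out (-1.59 to -1.32). The other 6 members had log2 fold changes of -0.67 to -0.10 relative to Mock. Oas1g (-0.40, SE 0.171) and Oasl1 (-0.35, SE 0.162) had all 3 AOA+Asp libraries below those of Mock. Neither passed the test (adjusted p = 0.174 and 0.22 from edgeR).

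HT-DNA combined with AOA gave the highest level of every member. Relative to HT-DNA alone all 7 were higher, by 1.06 to 2.00 on the log2 scale, with adjusted p of at most 2.73e-05 (edgeR), while 22.8% of all genes were called higher and 22.7% lower (3246 and 3231). The members' median was 1.4 and that of all genes 0.024. This comparison and that of HT-DNA with Mock share the HT-DNA libraries.

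Oas2, which encodes a large synthetase, went from 0.91, 1.04 and 0.699 CPM with HT-DNA to 5.69, 2.31 and 2.56 CPM with HT-DNA+AOA, a log2 fold change of 2.00 (SE 0.306). Replicate 1 was well above the other replicates, and without it the value was 1.46, still past the test. Oas3, the largest synthetase, went from 4.75, 5.12 and 4.67 CPM to 22.7, 13.8 and 20.2 CPM (1.96, SE 0.197, adjusted p = 1.6e-07 from edgeR). Oas1g went from 10.2, 7.48 and 9.87 CPM to 34.9, 29.4 and 38.6 CPM (1.90, SE 0.14, adjusted p = 3.21e-09 from edgeR). For every member except Oas1a, the lowest HT-DNA+AOA library exceeded the highest HT-DNA library more than 2-fold. This describes single genes, and the share of all genes of which it holds is not given.

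Oasl2 rose to 91.6, 58.1 and 60.2 CPM (1.41, SE 0.149), again with replicate 1 highest. Oasl1 rose to 508.7, 485.9 and 641.6 CPM (1.32, SE 0.0903, adjusted p = 1.18e-09 from edgeR). Oas1b rose to 17.1, 16.4 and 17.2 CPM (1.19, SE 0.154), with little spread among its libraries. Oas1a rose to 52.1, 54.9 and 70.2 CPM (1.06, SE 0.117). The summed counts of Oas1a and Oas1g rose by 1.32 (SE 0.103), between the values of both genes. The part of the division of shared reads in the difference between 1.06 and 1.90 was not tested. The 3 HT-DNA+AOA libraries did not rank alike. Replicate 1 was highest for Oas2, Oas3 and Oasl2, and replicate 3 for Oas1a, Oas1b, Oas1g and Oasl1. Leaving out any single library kept all 7 calls.

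Set against AOA alone, HT-DNA+AOA raised all 7 members, by 1.81 (Oas1a, SE 0.122) to 6.64 (Oasl1, SE 0.121). Here 6.46% of all genes were called higher and 6.98% lower (922 and 995), and the members' median was 3.1. These all-gene counts were 1857 and 2300 without HT-DNA+AOA replicate 1, 637 and 559 without AOA replicate 1, 548 and 530 without AOA replicate 2, 640 and 560 without HT-DNA+AOA replicate 2, and 282 and 112 when only the groups compared were fitted. Oasl2 had a log2 fold change of 6.53 (SE 0.232), Oas1b of 3.97 (SE 0.195), Oas2 of 3.06 (SE 0.344), Oas3 of 2.73 (SE 0.21) and Oas1g of 2.05 (SE 0.143). This comparison and the one with HT-DNA share the HT-DNA+AOA libraries.

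**Figure D3:**
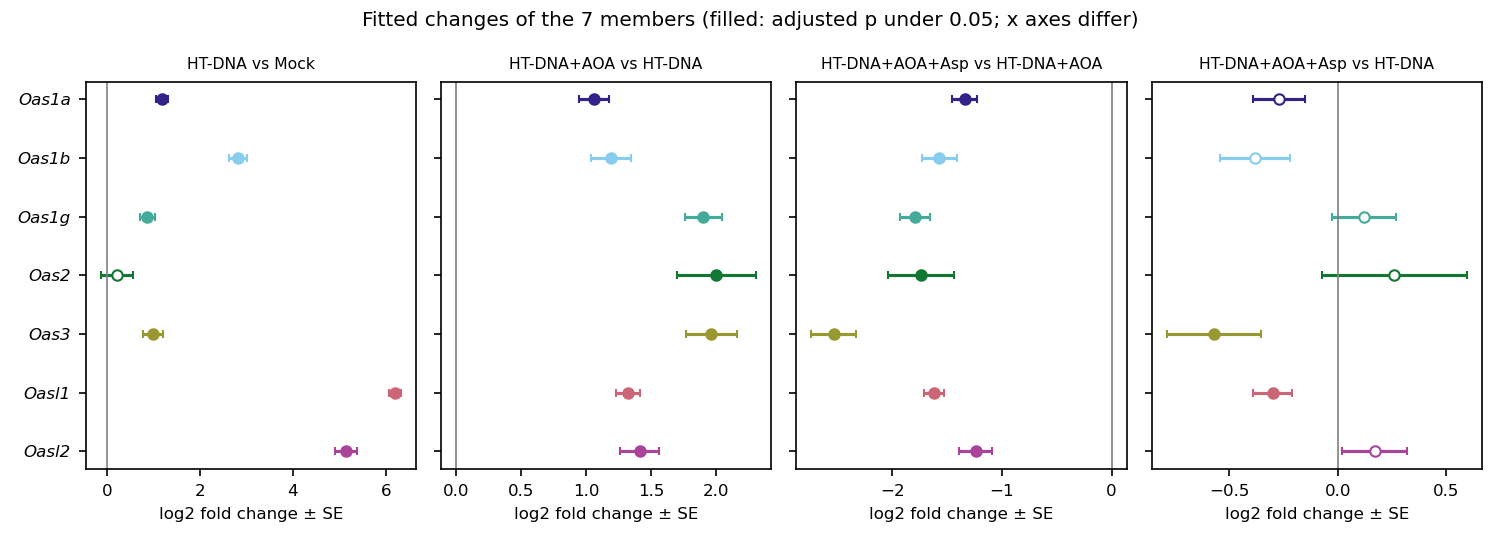
Log2 fold change ± SE of the 7 members in 4 comparisons (horizontal axes of different range, filled points with adjusted p under 0.05). HT-DNA against Mock spans 0.21 (Oas2) to 6.20 (Oasl1), adding AOA to HT-DNA spans 1.06 to 2.00, and adding aspartate spans -2.53 (Oas3) to -1.24 (Oasl2).

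Aspartate lowered all 7 members in cells given HT-DNA and AOA. The log2 fold changes ran from -2.53 (Oas3) to -1.24 (Oasl2), with adjusted p of at most 0.000118 (edgeR), while 23.9% of all genes were called lower and 23.7% higher (3411 and 3386; 2548 and 4194 with library totals). The members' median was -1.6. Oas3 dropped to 3.87, 2.79 and 3.12 CPM (SE 0.205, adjusted p = 1.57e-08 from edgeR). Oasl1 dropped to 177.2, 185.4 and 170.2 CPM, a log2 fold change of -1.62 (SE 0.0911), and Oasl2 to 31.1, 30.3 and 27.5 CPM (SE 0.148). Oas1g dropped to 10.6, 8.13 and 11.1 CPM (-1.79, SE 0.139), Oas1a to 25.7, 23.5 and 21 CPM (-1.34, SE 0.118), and Oas1b to 6.05, 6.06 and 4.97 CPM (-1.57, SE 0.158). Oas2 dropped to 0.919, 1.2 and 1.04 CPM (-1.74, SE 0.3), and by 1.20 without HT-DNA+AOA replicate 1. No HT-DNA+AOA+Asp library reached any HT-DNA+AOA library for any member, though the share of all genes of which this holds is not given. All 7 calls held with each library left out.

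The levels reached with aspartate lay near those of HT-DNA alone for most members. Of the 7, only Oas3 (-0.57, SE 0.217, adjusted p = 0.0379 from edgeR) and Oasl1 (-0.30, SE 0.0894, adjusted p = 0.0106 from edgeR) differed from HT-DNA, both lower, in a comparison that called 23.2% of all genes higher and 23.5% lower. The call for Oas3 was lost in 5 of the 6 fits that left out a library (HT-DNA replicates 1, 2 and 3 and HT-DNA+AOA+Asp replicates 2 and 3; -0.71 to -0.47 over the 6). Oas1a (-0.27, SE 0.119) and Oas1b (-0.38, SE 0.162) had all 3 libraries below those of HT-DNA without passing the test (adjusted p = 0.0698 and 0.0624 from edgeR). Oas1g (0.12, SE 0.147), Oas2 (0.26, SE 0.335) and Oasl2 (0.17, SE 0.151) overlapped with HT-DNA. These standard errors leave room for differences in either direction, so equal levels are not shown.

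HT-DNA raised all 7 members when AOA and aspartate were both present, although without them it had not raised Oas2. Relative to AOA+Asp, 1.93% of all genes were called higher and 1.52% lower, and the members' median was 1.9. Oasl1 rose by 6.25 (SE 0.128), Oasl2 by 5.42 (SE 0.238), Oas1b by 2.73 (SE 0.209), Oas2 by 1.92 (SE 0.4), Oas1g by 1.39 (SE 0.161), Oas3 by 1.09 (SE 0.248) and Oas1a by 1.07 (SE 0.127). The all-gene counts (275 higher and 217 lower) went to 147 to 173 higher and 85 to 116 lower without any of the 6 libraries but AOA+Asp replicate 2. Oas2 rose from 0.327, 0.245 and 0.253 CPM (5 to 7 counts) to 0.919, 1.2 and 1.04 CPM. These levels overlapped those of HT-DNA alone (0.91, 1.04 and 0.699 CPM). The calls for Oas2 and Oas3 depended on single libraries. Oas2 was lost without AOA+Asp replicate 3 (1.86), and Oas3 without AOA+Asp replicate 1 (0.83), AOA+Asp replicate 3 (1.18) or HT-DNA+AOA+Asp replicate 1 (0.95).

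The AOA effect itself was larger with HT-DNA than without it for 6 of the 7 members, as tested by the interaction of AOA and HT-DNA. For this term 7.23% of all genes were called higher and 8.26% lower (1031 and 1178; 1388 and 763 with library totals), and the members' median was 1.2. Single libraries moved these counts by over 1.5 times. They were 2558 and 2862 without HT-DNA+AOA replicate 3, and 524 to 716 higher and 621 to 916 lower without AOA replicate 2, HT-DNA replicates 1 or 3, HT-DNA+AOA replicates 1 or 2, or any Mock library. The difference between the AOA effects was 2.85 for Oas2 (SE 0.497, adjusted p = 0.00142 from edgeR), 1.74 for Oas3 (SE 0.308), 1.38 for Oasl2 (SE 0.437), 1.19 for Oas1g (SE 0.211), 1.15 for Oas1b (SE 0.297) and 0.63 for Oas1a (SE 0.173). For Oasl1 it was 0.45 (SE 0.171), which did not pass the test (adjusted p = 0.0818 from edgeR). Summed counts of Oas1a and Oas1g gave 0.80 (SE 0.151). The term for Oas2 was 2.31 without HT-DNA+AOA replicate 1, and its AOA libraries had 7 to 10 counts. The calls for Oas2, Oas3 and Oas1g held with each of the 12 libraries left out, whereas the other 3 did not. The call for Oas1b was lost without AOA replicate 2 (0.96) or Mock replicate 2 (0.85). That for Oas1a was lost without AOA replicate 1 (0.52), HT-DNA replicate 3 (0.59), Mock replicate 1 (0.62) or Mock replicate 3 (0.60). That for Oasl2 was lost without any AOA library, HT-DNA replicates 1 or 3, or Mock replicates 2 or 3, at 0.81 (without Mock replicate 2) to 1.52 (without Mock replicate 3).

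The corresponding term for aspartate was negative for all 7 members and passed the test for 2. Here 0.266% of all genes were called higher and 0.785% lower (38 and 112), and the members' median was -1.1. The all-gene counts were 182 and 188 without HT-DNA+AOA replicate 1 and 170 and 246 without replicate 3. They were 13 to 26 higher and 56 to 77 lower without any other library but AOA replicate 3. The term was -1.64 for Oas3 (SE 0.33, adjusted p = 0.0164 from edgeR) and -0.74 for Oas1a (SE 0.175, adjusted p = 0.0464 from edgeR). It was -1.23 for Oas1b (SE 0.31), -1.14 for Oas2 (SE 0.569), -1.11 for Oasl2 (SE 0.445), -0.67 for Oas1g (SE 0.216) and -0.40 for Oasl1 (SE 0.179), with adjusted p from 0.0634 to 0.51 in edgeR's test. Of the 12 fits that left out a library, 6 lost the call for Oas3 (without AOA replicates 1 or 2, AOA+Asp replicates 2 or 3, or HT-DNA+AOA+Asp replicates 2 or 3), at -1.61 to -1.41. For Oas1a 10 lost the call, all but those without HT-DNA+AOA replicate 1 or 3, at -0.82 to -0.63. Oas1b passed the test without HT-DNA+AOA replicate 1 (-1.23) or 3 (-1.22).

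**Figure D4:**
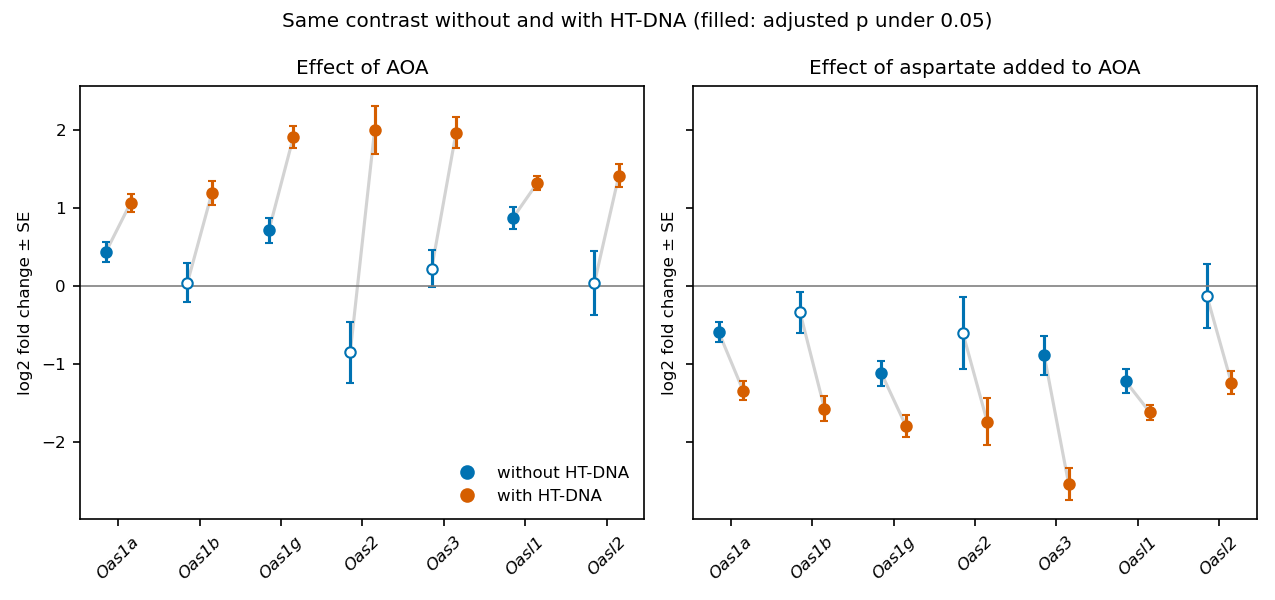
Log2 fold change ± SE for AOA (left) and for aspartate added to AOA (right), without HT-DNA (blue) and with HT-DNA (orange), filled where adjusted p was under 0.05. Every orange point in the left panel lies above its blue partner, with the widest gap for Oas2 (-0.85 and 2.00), and every orange point in the right panel lies below its partner.

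All 3 genes tied to the 2-5A pathway that are reported here rose with HT-DNA relative to Mock, with a median of 0.36. In that comparison 24.2% of all genes were called higher and 24% lower. When aspartate was added to HT-DNA+AOA, 2 of them fell and 1 rose, where 23.9% of all genes were called lower and 23.7% higher. Abce1, which encodes an ATPase of ribosome recycling, fell with AOA in HT-DNA cells (-0.40, SE 0.0832) and rose when aspartate was added (0.50, SE 0.0833). Pde12, which encodes a 2-5A-degrading phosphodiesterase, rose with HT-DNA (0.51, SE 0.0692) and had 0.11 (SE 0.0686) when AOA was added. Akap7, which encodes a protein with a 2′,5′-phosphodiesterase domain, rose with AOA (0.64, SE 0.123) and with HT-DNA (0.36, SE 0.124). Of these 3 genes, 1 fell and none rose past the test for HT-DNA+AOA relative to HT-DNA, with a median of 0.11. Of all genes 22.7% were lower and 22.8% higher there, so this count is no result about these genes.

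Genes of the interferon pathway that acts on the family moved in both directions. Of 9 genes from interferon-beta to ISGF3, 8 were tested, and relative to HT-DNA 4 rose and 1 fell with HT-DNA+AOA, with a median of 0.22, where 22.8% of all genes were called higher and 22.7% lower. Irf7 rose from 4.55 to 4.98 CPM to 19.6 to 27.3 CPM (2.33, SE 0.142), Irf9 from 25.1 to 28.4 CPM to 67.6 to 75.8 CPM (1.42, SE 0.08) and Stat2 from 29.3 to 31.8 CPM to 56.6 to 70.9 CPM (0.99, SE 0.0959). Irf7, Irf9 and Stat2 encode transcription factors of this pathway, and none of their HT-DNA libraries overlapped those with AOA. With aspartate added, 5 of the 8 fell and 3 rose, where 23.9% of all genes were called lower and 23.7% higher.

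All 6 other genes of dsRNA sensing or response rose with HT-DNA+AOA relative to HT-DNA, with a median of 1.3, and all 6 fell when aspartate was added, with a median of -1.2. Rigi, which encodes the RNA sensor RIG-I, rose from 17.8 to 22.5 CPM to 70.4 to 111.0 CPM (2.09, SE 0.138). Zbp1, which encodes a sensor of Z-form nucleic acids, rose from 2.22 to 2.8 CPM to 8.93 to 9.77 CPM (1.90, SE 0.209). Ifih1, which encodes the RNA sensor MDA5, rose from 11.3 to 14.9 CPM to 28.6 to 49.7 CPM (1.51, SE 0.169). Among the HT-DNA+AOA libraries, replicate 1 was highest for Rigi and Ifih1, replicates 1 and 3 of Zbp1 were at 9.77 and 9.72 CPM, and replicate 3 was highest for Irf7 and Irf9. Of the 5 other Oas1 paralogs only Oas1c, an Oas1 copy next to Oas1b, was tested. It rose with HT-DNA (1.05, SE 0.314, from 0.677 to 0.949 CPM in Mock to 1.49 to 1.8 CPM) and had 0.15 (SE 0.291) when AOA was added to HT-DNA, at 0.894 to 2.25 CPM.

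Across the 18 libraries, levels of the members went together, with Pearson r of log2 CPM from 0.771 (Oas3 and Oasl2) to 0.989 (Oasl1 and Oasl2). These correlations describe libraries that share treatments, and no p is given. The 5 genes outside the family closest to its mean profile were Usp18 (r = 0.985), Rigi (0.982), Ccrl2 (0.981), Ifit3b (0.978) and Neurl3 (0.978). Usp18, a protease that removes ISG15 from proteins, was also the closest gene to Oas1a (0.986) and to Oas3 (0.972). Oasl1 was closest to Isg15, the ubiquitin-like modifier (0.996), Oasl2 to Rsad2, which encodes the antiviral protein viperin (0.990), and Oas1b to Rtp4 (0.988). Oas1g was closest to Xaf1 (0.972) and Oas2, the member with fewest counts, to Sp100 (0.954).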

How the data were processed

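RNA was isolated with TRIzol from 18 cultures of L929 cells and sequenced by Majorbio. The authors deposited expected counts (estimated numbers of reads per gene, without normalization), of which 11.6% were not whole. The aligner, counting program and build are not given in the sources used here. Group means that the authors added to the table were left out. Groups came from the sample titles, and the family members and gene lists were chosen with earlier results of these data known.

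Counts were rounded and analysed in R 4.3.3 with edgeR 4.0.16, using filterByExpr (minimum count 10, total 15), TMM scaling and a single robust quasi-likelihood fit of all 18 libraries. Genes with a Benjamini-Hochberg adjusted p under 0.05 were called. There were 9 comparisons of groups and 2 interaction terms. CPM are rounded counts over TMM-scaled totals, and SE is the fitted log2 fold change divided by the root of its F statistic. Lengths and 31-base sequences came from GENCODE vM21, promoters from RefSeq (GRCm38.p6).

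The text names all 7 members, all tested 2-5A genes and paralogs, the 3 genes of each other list with the largest called change for HT-DNA+AOA against HT-DNA, the 5 genes most like the family mean and the closest gene to each member (Pearson r, log2 CPM, prior count 2). Some genes of these lists are not reported here, and list counts leave them out. Alternatives were DESeq2 1.42.0, RLE, library totals, other filters, unrounded counts, a fold-change minimum, only the groups compared, a replicate block, each library left out and transcript lengths. Steps were tested on simulated data.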

Additional observations from a re-analysis of the deposited data

Results flagged for a closer look

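The effect of AOA differed between cells with and without HT-DNA by the test of the interaction term, for 6 members. For this term 7.23% of all genes were called higher and 8.26% lower. The difference between the log2 fold changes was 2.85 for Oas2, 1.74 for Oas3, 1.38 for Oasl2, 1.19 for Oas1g, 1.15 for Oas1b and 0.63 for Oas1a, all higher with HT-DNA. Of the 12 fits that left out a library, 7 lost the call for Oasl2, 4 that for Oas1a and 2 that for Oas1b. In Oas2 the 2 effects had opposite signs, -0.85 without HT-DNA (not past the test) and 2.00 with it. Oas2 had 7 to 10 counts in the AOA libraries, and its difference was 2.31 without HT-DNA+AOA replicate 1.

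The effect of aspartate added to AOA differed in the same way for 2 members, by -1.64 for Oas3 and -0.74 for Oas1a, both more negative with HT-DNA. For this term 0.266% of all genes were called higher and 0.785% lower. Of the 12 fits that left out a library, 6 lost the call for Oas3 and 10 that for Oas1a. Both calls were also lost when only the groups compared were fitted.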

How the results depend on the processing

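No value past the test changed direction under any alternative. With library totals in place of TMM, the median log2 fold change of all genes was -0.116 for AOA against Mock and -0.118 for HT-DNA against Mock. With a minimum absolute log2 fold change of 1, the members called numbered 0 for AOA against Mock (3 otherwise), 2 for AOA+Asp against AOA (4 otherwise), 0 for HT-DNA+AOA+Asp against HT-DNA (2 otherwise), 1 for the interaction of aspartate and HT-DNA (2 otherwise), 4 for HT-DNA against Mock (6 otherwise) and 5 for the interaction of AOA and HT-DNA (6 otherwise). With at least 10 counts in every library, Oas2 was not tested and 0 members were called for AOA+Asp against Mock (1 otherwise). HT-DNA+AOA+Asp against HT-DNA called 1 member with library totals, where Oas3 had -0.52, and 4 when only the groups compared were fitted, with Oas1a (-0.27) and Oas1b (-0.37) added. That fit called 0 members for the interaction of aspartate and HT-DNA and lost Oas1a (0.62) and Oasl2 (1.36) in the interaction of AOA and HT-DNA. With library totals Oasl1 passed the test in the latter (0.53).

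Replicate numbers showed no clear pairing of the samples, but 3 libraries per group cannot exclude it. Deviations of same-numbered libraries from their group means had correlations of -0.104 to 0.278 over 27 pairs, of which 3 were over 0.1. All 3 involved HT-DNA+AOA, at 0.278 and 0.135 with AOA (replicates 1 and 3) and 0.134 with HT-DNA (replicate 3). The replicate block called 1 member for the interaction of aspartate and HT-DNA, Oas3, since Oas1a (-0.74) no longer passed the test, and changed no other member's call.

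When each library was left out in turn, the members called numbered 2 to 3 for AOA against Mock, 3 to 4 for AOA+Asp against AOA, 0 in every fit for AOA+Asp against Mock, 5 to 7 for HT-DNA+AOA+Asp against AOA+Asp, 1 to 2 for HT-DNA+AOA+Asp against HT-DNA, 4 to 6 for the interaction of AOA and HT-DNA and 0 to 3 for that of aspartate and HT-DNA. HT-DNA against Mock (6), HT-DNA+AOA against AOA (7), HT-DNA+AOA against HT-DNA (7) and HT-DNA+AOA+Asp against HT-DNA+AOA (7) kept their counts. RLE and unrounded counts changed no member's call, and DESeq2 added Oas1b for HT-DNA+AOA+Asp against HT-DNA (-0.37) and for the interaction of aspartate and HT-DNA (-1.25). Without a filter, Oas1a passed the test in the first of these (-0.28) and Oas1b in the second (-1.23). Summing Oas1a and Oas1g was chosen after seeing the data. The sum passed the test for the interaction of aspartate and HT-DNA (-0.74), which Oas1g alone did not. Causes of these changes were not tested. Oas2 had 5 to 22 counts per library outside HT-DNA+AOA and HT-DNA+AOA+Asp.

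All-gene counts (higher and lower) also moved by over 1.5 times when only the groups compared were fitted. They were 1972 and 2195 for HT-DNA+AOA against HT-DNA (3246 and 3231 otherwise), 2201 and 2077 for HT-DNA+AOA+Asp against HT-DNA+AOA (3386 and 3411), 1266 and 1196 for AOA+Asp against Mock (360 and 563), 867 and 1029 for HT-DNA+AOA+Asp against AOA+Asp (275 and 217), 282 and 112 for HT-DNA+AOA against AOA (922 and 995), 440 and 579 for the interaction of AOA and HT-DNA (1031 and 1178) and 6 and 60 for that of aspartate (38 and 112). DESeq2 gave 554 and 716 for AOA+Asp against Mock, 399 and 332 for HT-DNA+AOA+Asp against AOA+Asp and 109 and 204 for the interaction of aspartate and HT-DNA. Without a filter the latter pair were 329 and 336, and 83 and 220.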

Other observations

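Interferon-beta itself was close to the limit of detection. Ifnb1 had 6, 4 and 2 counts in the HT-DNA+AOA libraries and 1, 0 and 0 in HT-DNA+AOA+Asp, and no count in the 12 other libraries, HT-DNA included. It was not tested. A library with 0 counts allows up to 3.

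The remaining Oas1 copies also had too few counts to be tested. Oas1d had 0, 13 and 4 counts in HT-DNA+AOA, 2, 4 and 1 in HT-DNA, 3, 3 and 1 in HT-DNA+AOA+Asp, and at most 1 in any library without HT-DNA. Oas1e had counts in HT-DNA+AOA alone, 1, 0 and 4. Oas1f and Oas1h stayed under 0.2 CPM in all 18 libraries.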
